A study of Mus musculus with 2 samples.

Results

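The 7 Hedgehog pathway genes Shh, Ptch1, Cdon, Smo, Gli2, Gli3 and Gli1 were followed through the nuclei of 2 mouse brain libraries. They were taken by their symbols from the 32285 genes that both count tables list, and all 7 were found. The libraries were made by Slide-tags, in which nuclei of a frozen section take up DNA barcodes from beads of known position before droplet-based single-nucleus RNA sequencing, and the positions were not analysed here. The adult library came from a coronal section of the hippocampus of male C57BL/6J mice, an inbred laboratory strain, aged 56 days. The embryonic library came from a sagittal section of the brain of a purchased C57BL/6J embryo at embryonic day 14 (E14), whose sex is not given. Each tissue had 1 library and no treatment or transgene, so stage, tissue, dissection and library cannot be told apart in any difference between them. No test was made, and every interval given is an exact 95% interval that covers counting error only.

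Hedgehog signalling carries information from cells that secrete a ligand to cells that hold its receptor. Without ligand, Patched (Ptch1) keeps the membrane protein Smoothened (Smo) inactive, and the transcription factors Gli2 and Gli3 are processed into repressors or held back in the cytoplasm. When Sonic hedgehog (Shh) binds Patched together with the co-receptor Cdon, Smoothened enters the primary cilium, Gli2 and Gli3 become activators, and the target genes Gli1 and Ptch1 are transcribed. In the embryonic brain the pathway is best known for patterning ventral territories and for keeping progenitors dividing, and Gli3 is best known for its part in dorsal forebrain. In the adult brain its response genes are known from astrocytes and neural stem cells.

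The adult library held 1609 nuclei with a median of 6607 unique molecular identifiers (UMIs, each marking 1 captured RNA molecule), and the E14 library 9036 nuclei with a median of 4204. Nuclei were put into classes by the UMIs of 8 marker genes per class, none of them a Hedgehog pathway member, and the classes are called by the name of their marker list with the ending "-like". This placed 71.0% of adult and 52.5% of E14 nuclei, and the rest stayed unassigned. The classes used most were 512 radial glia-like and 331 mesenchyme-like nuclei at E14, with median depths of 3877.5 and 3891 UMIs, and 169 astrocyte-like nuclei in the adult, with a median of 3707. The median mitochondrial share was higher in astrocyte-like nuclei, at 0.706% against 0.151% in radial glia-like and 0.124% in mesenchyme-like nuclei. All 8 markers of each of these 3 classes were more than 2-fold higher inside the class than in the rest of the library. Nuclei were chosen by these same markers, so the folds describe the gate and are no check of the classes. The median fold of the markers was 5.51 in radial glia-like, 46.5 in mesenchyme-like and 35.7 in astrocyte-like nuclei. By its own markers the radial glia-like class thus stood least apart. The libraries shared 1 barcode.

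All 7 genes are protein-coding and are given here on the mouse build GRCm38, which is the mm10 of the count tables. Gli3 (ENSMUSG00000021318) spans chr13:15463235-15730026 on the plus strand and Gli2 (ENSMUSG00000048402) chr1:118834132-119053619 on the minus strand. Cdon (ENSMUSG00000038119) spans chr9:35421128-35507652 on the plus strand and Ptch1 (ENSMUSG00000021466) chr13:63508328-63573598 on the minus strand. Smo (ENSMUSG00000001761) spans chr6:29735503-29761365 on the plus strand, Gli1 (ENSMUSG00000025407) chr10:127329882-127341974 on the minus strand and Shh (ENSMUSG00000002633) chr5:28456815-28467256 on the minus strand. The genes therefore range from 10.4 kb (Shh) and 12.1 kb (Gli1) to 219 kb (Gli2) and 267 kb (Gli3). Intronic reads were counted, so levels of different genes are ordered below only per kb of gene. This takes UMIs to rise in proportion to gene length, which was not tested.

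Promoter windows of 300 bases around a RefSeq start, 250 of them upstream, were at hand for 5 of the 7 genes (build GRCm38.p6). The upstream stretches of Ptch1 and Gli2 are printed because Ptch1 is a known transcriptional target of the Gli factors and Gli2 is one of those factors. Capitals mark CG dinucleotides. The Ptch1 stretch, chr13:63565736-63565985 on the minus strand, lies within the gene interval above and overlaps no annotated exon. The Gli2 stretch, chr1:119053620-119053869 on the minus strand, adjoins the gene's start.
Ptch1: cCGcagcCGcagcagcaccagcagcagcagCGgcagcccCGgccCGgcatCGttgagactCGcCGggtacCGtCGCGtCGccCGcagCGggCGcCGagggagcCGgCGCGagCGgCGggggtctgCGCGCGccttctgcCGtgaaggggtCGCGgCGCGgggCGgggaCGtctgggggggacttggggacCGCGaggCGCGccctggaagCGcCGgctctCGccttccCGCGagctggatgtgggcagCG
Gli2: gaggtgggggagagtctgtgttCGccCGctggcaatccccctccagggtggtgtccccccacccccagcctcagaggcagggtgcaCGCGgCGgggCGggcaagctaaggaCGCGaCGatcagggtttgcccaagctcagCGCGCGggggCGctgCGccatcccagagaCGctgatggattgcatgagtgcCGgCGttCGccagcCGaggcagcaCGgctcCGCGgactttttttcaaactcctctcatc
The whole Ptch1 window held 47 CG dinucleotides, at percentile 98.6 of the 32851 windows of the table, whose median was 7. The Gli3 window held 39, the Gli2 window 28, the Smo window 17 and the Cdon window 3. The known 9-base Gli motif GACCACCCA, searched on both strands (reverse complement TGGGTGGTC), lay in 0 of the 5 windows and in 83 (0.253%) of all windows. Its first 7 bases, GACCACC, lay in 0 of the 5 and in 919 (2.80%) of all, which counts every window with the longer motif as well. These are statements about letters in these windows only.

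The comparison of embryonic with adult tissue asked which members were higher in E14 radial glia, the dividing progenitors of the developing brain, or in E14 mesenchyme, the connective tissue cells around it, than in adult astrocytes. A class's level of a gene is given in CPM: all UMIs of the gene in that class, per 1000000 UMIs of any gene in it. Cdon was 17.2-fold higher in radial glia-like than in astrocyte-like nuclei (interval 11.7 to 26.5), at 498 against 28.9 CPM. The other members tested lay within 2-fold of each other in the 2 classes. A gene counted as tested where its mean level over both classes was at least 2 CPM, and as higher or lower where the fold was at least 2. Of the 7 members, 6 were tested and 1 was higher and 0 lower, and of all 15488 genes tested 21.9% were higher and 22.4% lower. The median fold of the 6 was 0.32 on the log2 scale, and that of all genes tested was 0.10. In mesenchyme-like nuclei, Cdon and Gli1 were higher than in astrocyte-like nuclei and Gli3 was lower, so 2 of 6 were higher and 1 lower. The Cdon fold was 3.94, but in neither class was Cdon above the microglia-like nuclei of the same library, which are described below. Of the 15765 genes tested in that comparison 21.9% were higher and 18.7% lower, and the median log2 fold was 0.46 for the 6 members and 0.17 for all. Both comparisons use the same astrocyte-like nuclei. Since about as large a share of all genes passed 2-fold, the number of members that did so is not a result about them. Gli3 was at least 2-fold lower in mesenchyme-like nuclei in 8 of 10 alternative settings, and its ratio was 0.510 without likely doublets and 0.576 as a mean over nuclei.

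**Figure D1:**
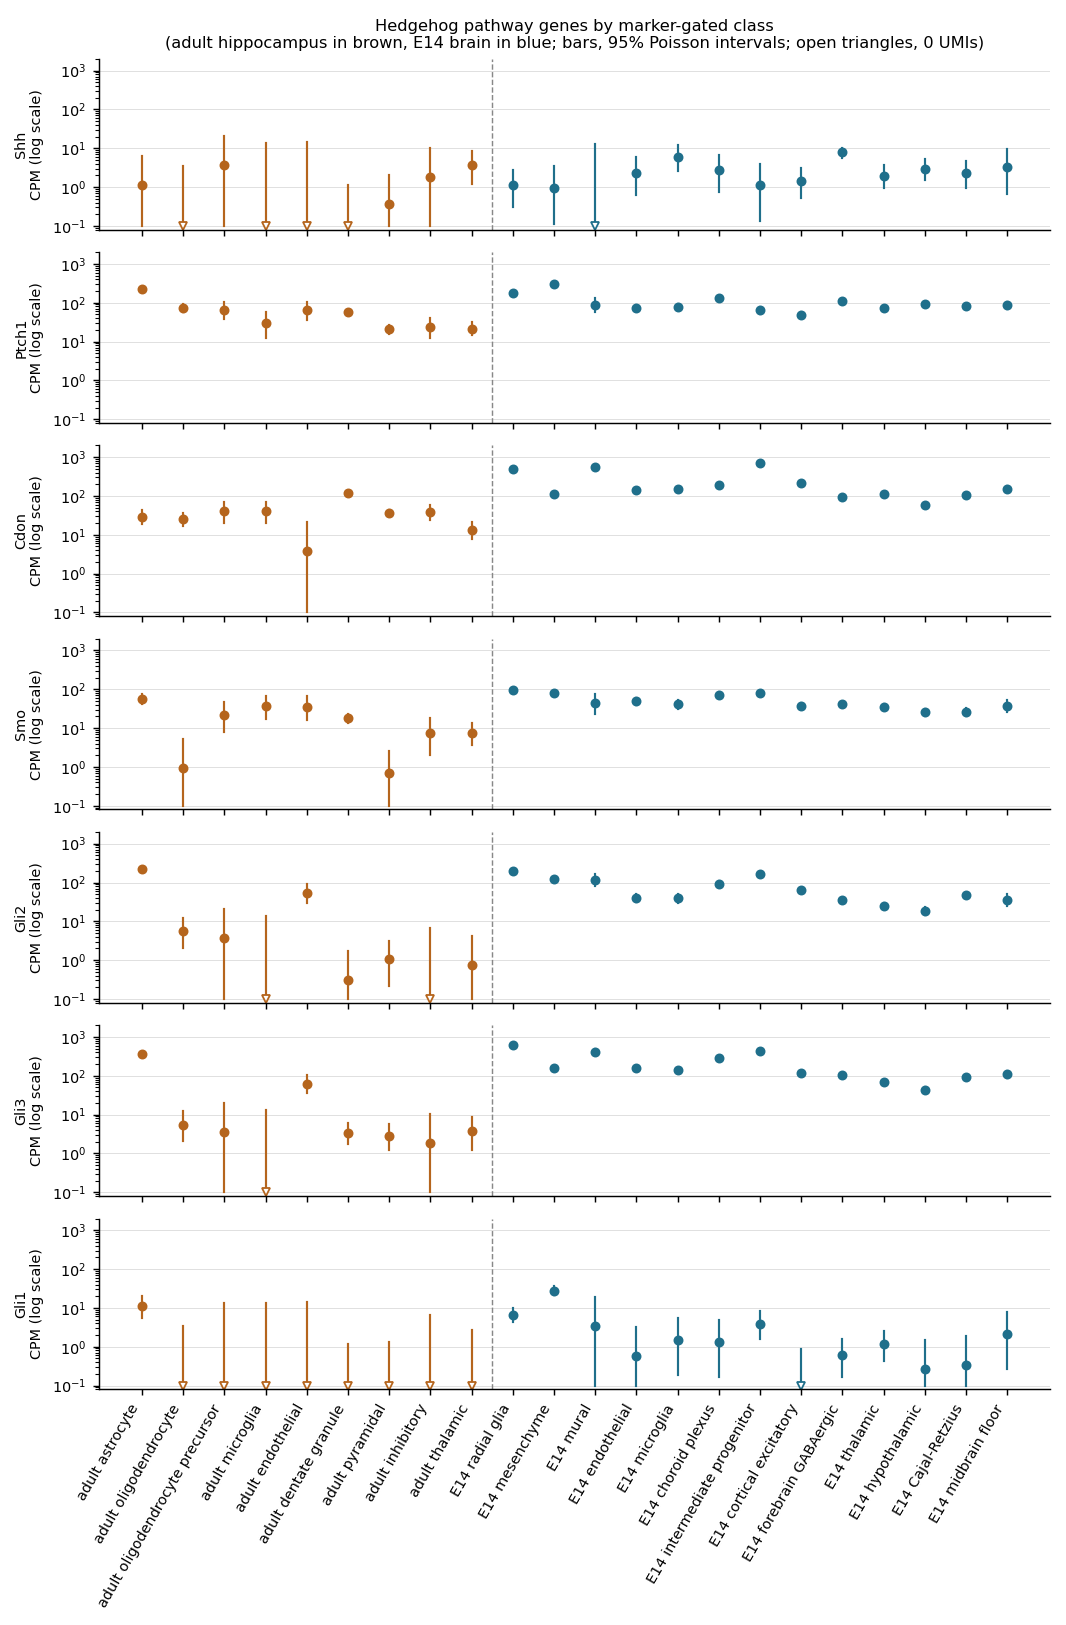
Level of each member in CPM (log axis) in the 9 adult and 13 E14 marker-gated classes with at least 20 nuclei. Points are summed levels with 95% Poisson intervals and open triangles mark 0 UMIs. Gli2 and Gli3 stand high in adult astrocyte-like nuclei at 219 and 370.0 CPM and at or under 5.55 CPM in every other adult class but the endothelial-like, while at E14 no class is at 0 for them.

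Shh, the secreted ligand, was rare in both libraries. The adult library held 10 Shh UMIs in 10 nuclei, 5 of them thalamic-like, and astrocyte-like nuclei held 1. At E14 there were 216 UMIs in 183 of 9036 nuclei, and 159 of these nuclei held a single UMI. The highest class was forebrain GABAergic-like, neurons that make the inhibitory transmitter GABA, with 50 UMIs and 7.79 CPM. That was 5.39-fold above cortical excitatory-like nuclei (2.31 to 15.4) and 3.92-fold above thalamic-like nuclei (1.96 to 8.66). Its neighbour in the order was the microglia-like class at 6.03 CPM (8 UMIs), from which it did not differ beyond counting error (1.29-fold, 0.607 to 3.15). Radial glia-like nuclei held 4 UMIs and mesenchyme-like nuclei 2, too few for a fold against the adult.

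Ptch1, the receptor that is also a target gene, was highest at E14 in mesenchyme-like nuclei, at 302 CPM (643 UMIs). Radial glia-like nuclei followed at 181 CPM, lower by 1.67-fold (1.49 to 1.86), and choroid plexus-like nuclei at 129.9 CPM. The other E14 classes lay between 48.9 and 109.5 CPM. In the adult, astrocyte-like nuclei held 224 CPM (202 UMIs), and the next class, oligodendrocyte-like, 74.0 CPM, a 3.03-fold gap (2.33 to 3.98). Against the adult, radial glia-like nuclei were at 0.807 (0.688 to 0.95) and mesenchyme-like nuclei at 1.35 (1.15 to 1.58) times the astrocyte-like level. The ratio of radial glia-like to astrocyte-like nuclei turned above 1 in 2 of the 11 alternative settings, where it ran from 0.599 to 1.08.

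Cdon, a cell-surface co-receptor of the immunoglobulin family, was high in a few E14 classes. Intermediate progenitor-like nuclei, the neurogenic daughters of radial glia, held 695 CPM (1241 UMIs), mural-like nuclei of vessel walls 549.8 CPM, radial glia-like nuclei 498 CPM and cortical excitatory-like nuclei 220 CPM. The mural-like and radial glia-like levels did not differ beyond counting error. Hypothalamic-like nuclei were lowest at 59.3 CPM. The radial glia-like level depended on how strictly the class was drawn: with a stricter gate of at least 3 markers and 4 UMIs it was 195 CPM, and the fold over astrocyte-like nuclei then was 8.18, while unsupervised clusters gave 30.4. These were the ends of the range over 11 alternative settings. It also depended on region, described below: 44 nuclei with dorsal markers held 790 of the 1806 radial glia-like Cdon UMIs. In the adult, dentate granule-like neurons held 387 of the 856 Cdon UMIs (45.2%) and 122 CPM. That was 3.33-fold above pyramidal-like neurons (2.67 to 4.18) and 4.21-fold above astrocyte-like nuclei (2.83 to 6.53). The adult classes below them lay between 3.94 and 40.2 CPM.

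Smo, the membrane protein that passes the signal on, spanned the narrowest range of levels at E14 among the members other than Shh and Gli1. Radial glia-like nuclei held 95.7 CPM, mesenchyme-like 79.4, intermediate progenitor-like 78.4 and choroid plexus-like 72.0, and no neighbours among these 4 differed beyond counting error. The other E14 classes lay between 25.3 and 49.4 CPM. In the adult, astrocyte-like nuclei held 56.7 CPM (51 UMIs) and microglia-like nuclei 36.6 CPM (10 UMIs), a ratio of 1.55 (0.778 to 3.43) that counting error covers. Within adult neurons Smo was uneven, with 18.2 CPM in dentate granule-like against 0.717 CPM (2 UMIs) in pyramidal-like nuclei, 25.4-fold apart (6.73 to 215). Oligodendrocyte-like nuclei held 1 Smo UMI. Against astrocyte-like nuclei, radial glia-like nuclei were at 1.69 times the level (1.26 to 2.31) and mesenchyme-like nuclei at 1.40 times (1.02 to 1.96).

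Gli2 and Gli3, the transcription factors that act on target genes, lay mainly in 1 adult class. Astrocyte-like nuclei held 197 of 241 Gli2 UMIs (81.7%) and 333 of 430 Gli3 UMIs (77.4%), at 219 and 370.0 CPM. Endothelial-like nuclei followed with 55.2 CPM of Gli2, from 14 UMIs in 4 nuclei, and 63.1 CPM of Gli3, from 16 UMIs in 6 nuclei. Every other named adult class held 11 UMIs or fewer of either gene. At E14 both genes were found in every class. Radial glia-like nuclei led with 202 CPM of Gli2 and 629 CPM of Gli3, followed by intermediate progenitor-like nuclei with 167 and 430.1 CPM. Between stages the pair differed in size: Gli3 was 1.70 times as high in radial glia-like as in astrocyte-like nuclei (1.51 to 1.91), and Gli2 was at 0.925 times (0.789 to 1.09), which turned above 1 in 2 of 11 alternative settings. In mesenchyme-like nuclei, Gli2 was at 0.578 (0.479 to 0.698) and Gli3 at 0.438 (0.376 to 0.511) times the astrocyte-like level, the latter 2.28-fold lower. As a result the number of Gli3 UMIs per Gli2 UMI was 3.11 (2.86 to 3.38) in radial glia-like, 1.69 (1.41 to 2.03) in astrocyte-like and 1.28 (1.09 to 1.51) in mesenchyme-like nuclei. The 2 genes differ in length, which is the same in each class.

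Gli1, an activator whose own transcription is a standard readout of the pathway, was sparse. All 10 adult UMIs lay in astrocyte-like nuclei, in 9 of 169, at 11.1 CPM (5.33 to 20.4), and the other adult classes and the unassigned nuclei held 0. At E14 mesenchyme-like nuclei held 59 of 147 UMIs (40.1%) and 27.7 CPM (21.1 to 35.8). Radial glia-like nuclei held 24 UMIs and 6.62 CPM, so mesenchyme-like nuclei were 4.19-fold higher (2.57 to 7.05). Cortical excitatory-like nuclei held 0 UMIs in 422 nuclei. Against the adult, mesenchyme-like nuclei were 2.50-fold above astrocyte-like nuclei (1.27 to 5.47), between 1.88 and 2.58 over 10 alternative settings, and radial glia-like nuclei were at 0.596 times their level (0.274 to 1.40), which counting error covers. The mesenchyme-like class thus led the E14 brain in both Gli1 and Ptch1 while holding less Gli2, Gli3 and Cdon than the radial glia-like class.

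RNA set free during dissociation can give UMIs to nuclei that do not make them, so each level was set beside microglia, immune cells of another origin. A strict microglia-like gate (80 E14 nuclei) was used, a choice made after the levels had been seen. It held 90.3 CPM of Gli3, 22.1 of Gli2, 98.8 of Ptch1, 114 of Cdon, 34.1 of Smo, 1.70 of Gli1 and 1.70 of Shh. Radial glia-like nuclei lay above it 6.96-fold for Gli3 (5.30 to 9.33), 9.14-fold for Gli2 (5.31 to 17.2), 4.36-fold for Cdon (3.42 to 5.66), 2.81-fold for Smo (1.79 to 4.66) and 1.83-fold for Ptch1 (1.40 to 2.44). With the strict radial glia-like gate the Cdon ratio was 1.71 (1.30 to 2.28). Mesenchyme-like nuclei lay above it for Gli1 (16.3-fold, 2.81 to 654), Gli2 (5.71-fold, 3.28 to 10.9) and Ptch1 (3.06-fold, 2.34 to 4.08). They also lay above it for Smo (2.33-fold, 1.46 to 3.92) and Gli3 (1.80-fold, 1.34 to 2.45), whereas their Cdon was at the same level (0.997, 0.758 to 1.33). Gli3 in 2 of the neuron classes was not apart from the microglia-like level, with ratios of 1.29 (0.973 to 1.75) in cortical excitatory-like and 1.19 (0.902 to 1.61) in forebrain GABAergic-like nuclei. Thalamic-like and hypothalamic-like nuclei held less Gli3, 68.0 and 42.7 CPM, so microglia-like nuclei did not have the lowest level. How much of any of these levels is free RNA was not tested. Shh in forebrain GABAergic-like nuclei was not apart from it either (4.57-fold, 0.784 to 184). In the adult, 52 microglia-like nuclei held 0 UMIs of Gli2, Gli3 and Gli1, 29.2 CPM of Ptch1, 36.6 of Smo and 40.2 of Cdon. Astrocyte-like nuclei were 7.68-fold above them for Ptch1 (3.82 to 18.0), and Smo and Cdon in astrocyte-like nuclei were not apart from them.

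Within the E14 library, radial glia-like nuclei were set against mesenchyme-like nuclei and against 2758 neurons, the cortical excitatory-like, forebrain GABAergic-like, thalamic-like and hypothalamic-like classes together. Cdon was 4.38-fold (3.83 to 5.03) and Gli3 3.88-fold (3.46 to 4.35) higher in radial glia-like than in mesenchyme-like nuclei, and Gli1 was lower, so 2 of 6 members tested were higher and 1 lower. Of 15630 genes 9.48% were higher and 13.6% lower. With the strict gate the Cdon fold was 1.88. Against neurons, 6 of 7 members were higher and 1, Shh, was lower, beside 13.6% higher and 7.47% lower of 14994 genes. Gli1 was 11.6-fold higher (5.47 to 26.2), Gli3 7.23-fold (6.79 to 7.71), Gli2 5.63-fold (5.07 to 6.26), Cdon 4.16-fold (3.91 to 4.43), Smo 2.68-fold (2.35 to 3.06) and Ptch1 2.17-fold (1.97 to 2.37). The 3 transcription factors thus had the largest folds of the 6 and the receptor Ptch1 the smallest. With the strict gate the Cdon fold was 1.65. The median log2 fold was 2.06 for the members and 0.18 for all genes. The summed neuron levels of Gli3 (86.9 CPM), Ptch1 (83.7), Cdon (119.6) and Smo (35.7) were close to those of strict microglia-like nuclei given above, so these folds, and their order, are over levels that may hold free RNA. In unsupervised clusters the radial glia-like set held 817 nuclei, from clusters where 57.1% and 66.7% of the marker-gated nuclei were radial glia-like. With this mixed set the folds over neurons were 23.3 for Gli3, 18.2 for Gli2, 12.0 for Cdon and 1.76 for Ptch1.

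In the adult library the same question was asked of astrocyte-like nuclei against 536 neurons, the dentate granule-like, pyramidal-like, inhibitory-like and thalamic-like classes together. Of 6 members tested 5 were higher and 1 lower, beside 22.9% higher and 13.9% lower of 15129 genes. Gli2 was 344-fold higher (145 to 1072) from 197 against 5 UMIs, and Gli3 116-fold (77.5 to 182) from 333 against 25 UMIs. Gli1, with 10 UMIs against 0, was at least 29.1-fold higher, taking 3 counts over the group as the most that 0 allows. With the counting error of the 10 included, the lower limit of the ratio was 19.6, and over alternative settings the bound against 3 counts went down to 9.91. Ptch1 was 6.20-fold (5.15 to 7.45) and Smo 6.02-fold (4.13 to 8.72) higher. Cdon went the other way, 2.32-fold lower in astrocyte-like nuclei at 28.9 against 67.1 CPM, and 1.15-fold lower with the strict gate. That gate held 17 dentate granule-like nuclei, against 237 in the main one. Among nuclei with under 1% mitochondrial UMIs the Cdon ratio was 0.602. The median log2 fold was 3.75 for the members and 0.16 for all genes.

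**Figure D2:**
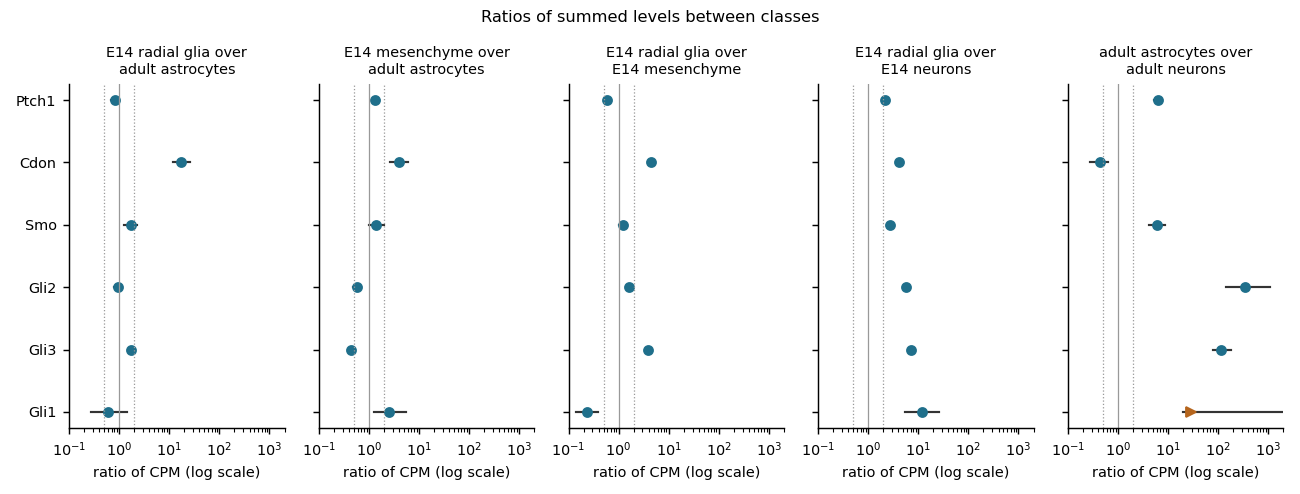
Ratio of summed CPM (log axis) for 6 members in 5 comparisons, with exact 95% intervals where wider than the point. The solid line marks a ratio of 1, dotted lines mark 2-fold, and the triangle marks a bound against 0 UMIs. Cdon is the member past 2-fold in radial glia-like over astrocyte-like nuclei (17.2), and Gli2 has the highest ratio, 344, in adult astrocyte-like nuclei over neurons.

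Shares of nuclei with a UMI rise with depth, so each nucleus was also thinned to 1000 UMIs and shallower nuclei were left out, 35 of 512 radial glia-like, 28 of 331 mesenchyme-like and 30 of 169 astrocyte-like. Before thinning, Gli3 was seen in 69.7% of radial glia-like, 42.0% of mesenchyme-like and 53.3% of astrocyte-like nuclei. At equal depth the shares were 42.4% (37.9 to 46.9), 15.2% (11.3 to 19.7) and 20.1% (13.8 to 27.8), against 2.50% in strict E14 microglia-like nuclei. Gli2 was at 21.0% in radial glia-like, 12.9% in mesenchyme-like and 18.0% in astrocyte-like nuclei (46.9%, 41.1% and 48.5% unthinned), and in 2.50% of the microglia-like. Adult microglia-like nuclei held 0 of either gene in 50 thinned nuclei, which allows up to 7.11%. The radial glia-like class thus had the largest share of the 3 for Gli3. For Gli2 the radial glia-like and astrocyte-like intervals overlapped, and at 2000 UMIs the order turned, with 30.6% of radial glia-like and 33.1% of astrocyte-like nuclei. The median depth before thinning was 4711 UMIs in all E14 microglia-like and 2601.5 in adult microglia-like nuclei.

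For the receptors the order was another. Ptch1 was seen in 23.1% of thinned mesenchyme-like, 18.0% of radial glia-like and 18.0% of astrocyte-like nuclei (57.7%, 44.7% and 43.2% unthinned), and in 5.00% of E14 and 8.0% of adult microglia-like nuclei. Cdon was seen in 29.4% of radial glia-like, 6.93% of mesenchyme-like and 0.719% of astrocyte-like nuclei (48.4%, 22.1% and 8.28% unthinned), and in 8.75% of E14 microglia-like nuclei. The mesenchyme-like share of Cdon was thus not above the microglia-like share. Smo lay between 5.94% and 9.43% in the 3 classes, and at 3.75% and 6.00% in the E14 and adult microglia-like nuclei. Gli1 was seen in 3.30% of mesenchyme-like (1.59 to 5.99), 0.419% of radial glia-like and 1.44% of astrocyte-like nuclei after thinning, and in 13.3%, 4.49% and 5.33% before.

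**Figure D3:**
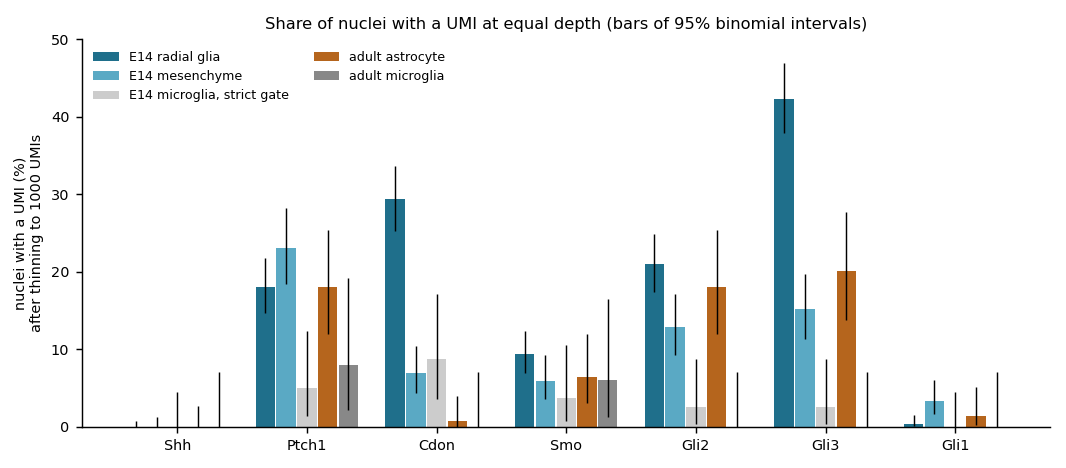
Share of nuclei with at least 1 UMI of each member (%) after thinning every nucleus to 1000 UMIs, in 5 classes, with exact 95% binomial intervals as lines. Gli3 in radial glia-like nuclei is highest at 42.4%, and Ptch1 is highest in mesenchyme-like nuclei at 23.1%.

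Whether members were seen in the same nuclei was read at 2000 UMIs per nucleus. In 399 radial glia-like nuclei, Gli3 was seen in 77.5% (69.3 to 84.4) of the 129 nuclei with Gli2 and in 55.9% (49.8 to 61.9) of the 270 without. It was seen in 81.4% (74.1 to 87.4) of the nuclei with Cdon and in 52.4% (46.0 to 58.6) of those without. Nuclei with Ptch1 did not differ in that way, with Gli3 in 56.7% (46.7 to 66.4) of them and in 65.1% (59.3 to 70.5) of the rest. In mesenchyme-like nuclei, Gli3 was seen in 28.8% of the nuclei with Gli2 and 25.6% of those without, with wide overlap. In astrocyte-like nuclei the shares were 55.6% (40.0 to 70.4) and 36.7% (26.1 to 48.3), and their intervals overlapped. Of the radial glia-like nuclei 18.0% showed none of Ptch1, Smo, Gli2 and Gli3 and 1.00% showed all 4.

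The radial glia-like class was then split by region, a comparison that bears on the pathway because Shh patterns the ventral forebrain. Markers of the dorsal forebrain such as Emx1 and Emx2 marked 44 nuclei and markers of the ventral forebrain such as Gsx2 and Dlx2 marked 43, while 425 showed no region. Cdon was the member furthest apart, at 193 CPM in ventral against 1639 CPM in dorsal nuclei, 8.47-fold lower. Gli3 was at 460 against 959 CPM, 2.08-fold lower, and Gli2 at 192 against 328 CPM, a ratio of 0.585 (0.458 to 0.746). Ptch1 went the other way with 166 against 91.3 CPM, a ratio of 1.82 (1.27 to 2.65), and Smo was at 0.730 (0.510 to 1.04). The dorsal Ptch1 level was under the 98.8 CPM of strict microglia-like nuclei. Both Ptch1 levels were under the 181 CPM of the whole radial glia-like class. Ventral nuclei held 105 and dorsal nuclei 44 of the 657 Ptch1 UMIs of that class. Of 6 members tested 0 were higher in ventral nuclei and 2 lower, beside 11.9% higher and 10.1% lower of 12878 genes. The median log2 fold was -0.79 for the members and -0.02 for all genes. Under 10 alternative settings the Ptch1 ratio ran from 1.81 to 3.55 and stayed under 2 in 7 of them, and the Gli3 ratio ran from 0.337 to 0.517. Gli1 had 2 ventral and 4 dorsal UMIs of the 24 in the whole class, and Shh 0 in both. Ventral nuclei were deeper, with a median of 12624 against 4450 UMIs, and the counts of members higher and lower were the same among nuclei with at least 2000 UMIs, a setting added after seeing the data. At 1000 UMIs per nucleus Cdon was seen in 68.2% (52.4 to 81.4) of dorsal and 16.3% (6.80 to 30.7) of ventral nuclei, while the Ptch1 shares, 4.55% and 6.98%, overlapped. Many of the ventral markers (Dlx1, Dlx2, Dlx6os1, Sp9 and Gad2) also serve for the forebrain GABAergic-like class. The dorsal marker Neurog2 also serves for intermediate progenitors. The part of these shared markers, and of nuclei mixed with those classes, in these values was not tested. The strict microglia-like level of Cdon was 1.70-fold (1.25 to 2.32) under the ventral and 14.4-fold (11.2 to 18.7) under the dorsal level.

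The other surface genes of the pathway split along the same line. Boc and Gas1, co-receptors that act beside Cdon, were at 0.220 (0.155 to 0.309) and 0.162 (0.0915 to 0.271) of their dorsal level in ventral nuclei. Lrp2, an endocytic receptor that can bind Shh, was at 0.255 (0.0599 to 0.840). Hhip, a decoy receptor for the ligand, had 8 ventral and 0 dorsal UMIs, which makes it at least 2.04-fold higher in ventral nuclei against a floor of 3 counts. With the counting error of the 8 included, the lower limit of the ratio was 1.30. Boc, Gas1 and Lrp2 thus lay lower, and Hhip, a known target of the pathway, higher in the ventral nuclei. Nkx2-1, a ventral forebrain factor, had 36 against 0 UMIs, and Olig2, a factor of ventral progenitors, 12 against 1. Of the 36 other pathway genes listed 28 were tested in this comparison, with 4 higher and 8 lower, beside 11.9% and 10.1% of all genes.

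**Figure D4:**
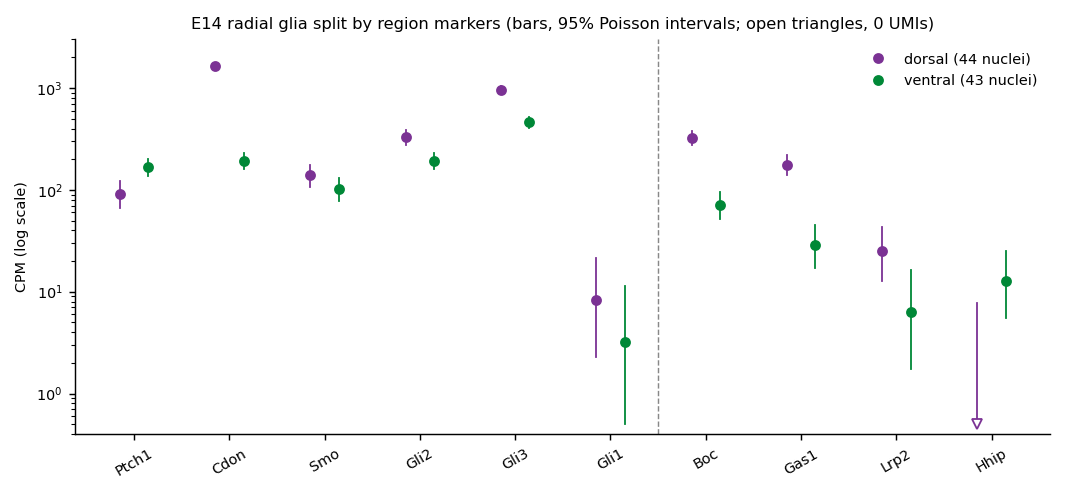
Level in CPM (log axis) of 6 members and 4 further receptor genes in radial glia-like nuclei with dorsal (purple, 44 nuclei) or ventral (green, 43 nuclei) markers, with 95% Poisson intervals. Open triangles mark 0 UMIs. Cdon stands at 1639 CPM in dorsal and 193 CPM in ventral nuclei, while Ptch1 and Hhip lie higher in ventral nuclei.

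Across the other comparisons, the 36 further genes of the pathway list (ligands, release factors, receptors, cytoplasmic and ciliary regulators, and targets) gave these counts. In radial glia-like over astrocyte-like nuclei 30 were tested, 12 higher and 2 lower, beside 21.9% and 22.4% of all genes. Among the 12 were the receptors Boc at 2.22-fold (1.69 to 2.98) and Lrp2 with 75 UMIs against 1, and the targets Ccnd1, a cyclin of the G1 phase, at 4.82-fold (2.48 to 10.7) and Mycn with 67 UMIs against 1. The repressor Sufu, which holds Gli proteins in the cytoplasm, was 2.22-fold higher (1.47 to 3.51). In mesenchyme-like over astrocyte-like nuclei 30 were tested, 6 higher and 3 lower, beside 21.9% and 18.7% of all genes, which is no result about the list. Among them were Scube1, a factor that helps release the ligand, at 19.2-fold (7.39 to 71.4) and Sufu at 3.15-fold (2.07 to 4.99). Sufu was thus past 2-fold in both E14 classes.

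Between the E14 classes, 31 of the 36 were tested in radial glia-like over mesenchyme-like nuclei, 6 higher and 2 lower, beside 9.48% and 13.6% of all genes. Boc was 4.22-fold higher (3.29 to 5.49) and Lrp2 11.0-fold (4.12 to 41.4), and Scube1 was 3.27-fold lower. Over neurons 30 were tested, 10 higher and 1 lower, beside 13.6% and 7.47% of all genes, with 4 of 5 receptors among the higher ones: Gas1 at 8.31-fold (6.57 to 10.5), Boc at 5.79-fold (5.10 to 6.58), Hhip at 5.76-fold (3.57 to 9.32) and Lrp2 at 4.53-fold (3.28 to 6.23). In adult astrocyte-like nuclei over neurons 29 were tested, 11 higher and 3 lower, beside 22.9% and 13.9% of all genes. Gas1 was 24.5-fold (11.5 to 56.5), Hhip 10.2-fold (2.94 to 36.7) and Boc 5.19-fold (3.67 to 7.28) higher, so these receptor genes had the direction of Ptch1 and Cdon had the opposite one. For Hhip this rested on 7 against 6 UMIs. Oligodendrocyte-like nuclei held 137 of the 158 adult Hhip UMIs, at 127 CPM against 7.78 in astrocyte-like nuclei. The 3 lower ones, Hhat, Scube1 and Scube2, all belong to the list of ligand release genes, and of the 5 on that list 1, Disp1, was higher. Of 5 ciliary genes 0 passed 2-fold in the comparisons of radial glia-like nuclei with mesenchyme-like nuclei and with E14 neurons, and 1, Tulp3, passed in each of the other comparisons.

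The members were also ordered within a class per kb of gene. The order holds only as far as UMIs rise in proportion to gene length, which was not tested. In astrocyte-like nuclei Ptch1 led at 3.44 CPM per kb, followed by Smo at 2.19, Gli3 at 1.39, Gli2 at 0.997, Gli1 at 0.919 and Cdon at 0.334. In radial glia-like nuclei Cdon led at 5.76 CPM per kb, then Smo at 3.70, Ptch1 at 2.78, Gli3 at 2.36, Gli2 at 0.922 and Gli1 at 0.547. With the strict gate that order turned, with Ptch1 first at 4.06, then Smo at 3.93, Gli3 at 2.41 and Cdon at 2.26. In mesenchyme-like nuclei Ptch1 was at 4.63 CPM per kb, Smo at 3.07, Gli1 at 2.29, Cdon at 1.31, Gli3 at 0.608 and Gli2 at 0.576. Gli1, the shortest of the 3 factors, was therefore below Gli2 per kb in radial glia-like nuclei and above both others in mesenchyme-like nuclei. Not divided by length, the mesenchyme-like levels were 27.7 CPM for Gli1, 126 for Gli2 and 162 for Gli3.

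The nuclei with Shh UMIs at E14 were described by the other genes they held. Of 183 such nuclei 39 were forebrain GABAergic-like and 92 unassigned, and 24 held 2 or more Shh UMIs. In these 24, Nkx2-1 was 4.77-fold (3.67 to 6.12) and Lhx6 4.44-fold (3.48 to 5.59) above the 8853 nuclei without Shh. Both are transcription factors of the ventral forebrain, and Lhx8, another such factor, which was chosen after its values were seen, was 8.90-fold higher (7.50 to 10.5). Not all genes of the list were higher. Isl1 and Six3 were at 1.16 (0.827 to 1.58) and 1.10 (0.637 to 1.76), which counting error covers. The hypothalamic factors Otp and Sim1 and a glutamatergic gene were lower, with Otp at 0.108 (0.0131 to 0.392), Sim1 at 0.195 (0.0975 to 0.350) and Slc17a6, a glutamate transporter, at 0.537 (0.383 to 0.732). For Otp this did not extend to all 183 nuclei, where the ratio was 0.845 (0.669 to 1.05). The 24 nuclei were deep, with a median of 16062.5 UMIs against 4148, which was not matched here. Within the forebrain GABAergic-like class alone, the 39 nuclei with Shh had 2.22-fold more Nkx2-1 (1.68 to 2.90) and 3.61-fold more Lhx8 (3.02 to 4.31) than the other 1111. Lhx6 was only 1.47-fold higher there (1.21 to 1.77). In the 8 nuclei of the class with 2 or more Shh UMIs, Nkx2-1 was at 3.06-fold and Lhx8 at 4.32-fold. Lhx6 in these 8 was at 1.29-fold (0.942 to 1.73), which counting error covers.

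The members themselves were unevenly placed around Shh. Over all nuclei, those with at least 1 Shh UMI had Gli2 at 0.572 (0.471 to 0.690) and Gli3 at 0.727 (0.656 to 0.803) of the level in nuclei without, and Ptch1 at 0.987 (0.881 to 1.10). Within the forebrain GABAergic-like class, the nuclei with Shh had Ptch1 at 1.41-fold (1.13 to 1.75). Gli3 was at 1.54-fold (1.24 to 1.89), Cdon at 1.44-fold (1.13 to 1.80), Smo at 1.04-fold (0.679 to 1.53) and Gli2 at 0.801 (0.479 to 1.27). In the 8 nuclei of the class with 2 or more Shh UMIs, Ptch1 was at 1.25-fold (0.877 to 1.74) and Cdon at 1.16-fold (0.778 to 1.68), which counting error covers. Gli3 in these 8 nuclei was at 1.70-fold (1.24 to 2.27). The median depth of these 39 nuclei was 8937 UMIs against 3646 in the rest of the class.

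**Figure D5:**
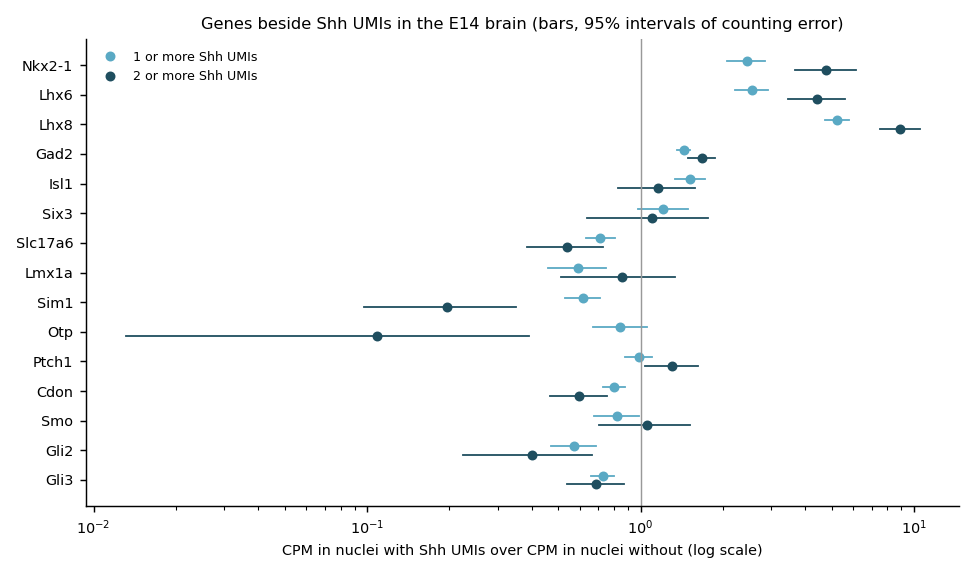
Ratio of summed CPM (log axis) in E14 nuclei with at least 1 (light, 183 nuclei) or at least 2 (dark, 24 nuclei) Shh UMIs over the 8853 nuclei without, with exact 95% intervals. Lhx8, Nkx2-1 and Lhx6 lie furthest to the right, at 8.90, 4.77 and 4.44 for 2 or more UMIs, and Otp lies furthest to the left at 0.108.

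The pattern of each member was last compared with that of other genes over the 18 classes with at least 50 nuclei, by Pearson's r of log2(CPM + 5). Only genes with at least 500 UMIs over both libraries that are no class marker could be named as most alike. These classes share 2 libraries and their depths and free RNA, so r is a description only. Gli2 and Gli3 were among each other's 3 most alike genes of about 12133 (r = 0.975), with Fzd2 (0.980) and Vcam1 (0.937) beside Gli2, and Pax6 (0.959) and Plce1 (0.957) beside Gli3. Smo was most like Pard3bos1 (0.941), Gm26827 (0.919) and Pard3b (0.908). Cdon was most like Tmem161b (0.928), Dcaf1 (0.922) and Ninl (0.915), and it had r of 0.696 with Gli3 and 0.339 with Ptch1. Ptch1 was most like the ribosomal protein genes Rpl35 (0.872), Rpl41 (0.866) and Rps15a (0.856), and Gli1, from 157 UMIs in all, like Nadk2 (0.916), Atp5e (0.868) and Prrx1 (0.860). Between members, the pairs after Gli2 and Gli3 were Smo with Gli3 (0.808), Smo with Gli2 (0.786), Ptch1 with Gli2 (0.783) and Ptch1 with Gli1 (0.770). Shh, from 226 UMIs, was most like Myo3b (0.845), Ric8b (0.797) and Zcchc12 (0.784), and its r with the other members was 0.323 or less.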

How the data were processed

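Deposited files hold whole-number UMI counts of 32285 genes per nucleus barcode, made by the authors with Cell Ranger on mm10 with intronic reads and not normalized. The file headers name Cell Ranger 6.1.2 (adult) and 7.0.1 (E14). CellBender, a tool that removes free RNA, is given in the study's methods for embryonic tissue. The E14 table's header names Cell Ranger alone, so it was taken to precede that step, which could not be checked. A minimum of 500 UMIs and a mitochondrial share below 5% left 1609 of 1661 and 9036 of 9037 nuclei, with 15346746 and 58923882 UMIs in all. No table column was left unmapped, and samples were grouped by title, 1 library per group.

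A nucleus was a candidate for a class with at least 2 of 8 markers, 3 UMIs and 2 times the UMIs expected from the library. The list with the highest Poisson likelihood ratio was taken, and the nucleus stayed unassigned (67 adult, 345 E14) where the next list passed 50% of it. Doublets were kept. Intervals are exact Poisson, binomial (Clopper-Pearson) or conditional binomial ones at 95%, and 0 counts were taken to allow 3. As each tissue had 1 library, no p-values were computed.

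Alternatives were a strict gate (3 markers, 4 UMIs, 4 times), no ambiguity rule, Leiden clusters computed without pathway genes, limits on Malat1, UMIs, mitochondrial share and Scrublet score, means over nuclei, another denominator and folds of 1.5 and 3. Leaving radial glia with a region out, and deeper regional nuclei alone, were added after seeing the data. Python 3.11.15, NumPy 2.4.6, SciPy 1.17.1, pandas 2.3.3, Scanpy 1.11.5, igraph 0.11.9 and matplotlib 3.10.9 were used. Functions were tested on simulated data. Genes named are the members, a list of pathway and region genes, class markers, and the 3 genes most like each member. The latter were taken among genes with at least 500 UMIs that are no class marker. Members and lists were chosen with earlier results of these data known. Values of 1 listed pathway gene are not reported here.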

Additional observations from a re-analysis of the deposited data

How the results depend on the processing

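The number of members called higher stayed within 1.5 times the value given in 66 alternative fits and moved further in 10. These fits include the thresholds of 1.5-fold and 3-fold and the number of highest shares given below. Numbers of members called lower did not enter. Of the folds of single members 353 stayed close, 62 moved, and 0 turned from past 2-fold in one direction to the other. The number higher in radial glia-like than in astrocyte-like nuclei (1) was 3 with Leiden clusters, 2 as a mean over nuclei and 3 at a 1.5-fold threshold. Mesenchyme-like over astrocyte-like nuclei (2) gave 1 with Leiden clusters and 1 at a 3-fold threshold, and radial glia-like over mesenchyme-like (2) gave 1 with the strict gate. Ventral over dorsal (0) gave 1 without the ambiguity rule, 1 with Leiden clusters, 1 as a mean over nuclei and 1 at a 1.5-fold threshold. The strict gate left under 20 regional nuclei and gave no value. The cause of these moves was not tested. Members whose share at equal depth was highest, among all 13 E14 classes, in radial glia-like or mesenchyme-like nuclei numbered 5, and 4 at 2000 UMIs. Leaving out the 21 adult and 653 E14 nuclei with the highest Scrublet scores kept each number of higher members, while the 1 member lower in mesenchyme-like than in astrocyte-like nuclei, Gli3, no longer passed. No paired analysis was possible because each tissue has 1 library and the replicate number 1 marks no shared animal. Depth limits Gli1 (10 adult and 147 E14 UMIs) and Shh (10 and 216), the members with the fewest UMIs in both libraries. The part of free RNA in the E14 levels was not tested.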
